A study of Mus musculus with 10 samples.

Results

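The Ly6 surface antigens Ly6g, Ly6c1, Ly6c2, Ly6a, Ly6a2, Ly6e and Ly6h were taken from the deposited tables by their gene symbols. All 7 were listed among the 22064 genes of the sorted-cell tables, and 5 of the 7 were listed among the 19333 genes of the oligodendrocyte precursor table, where Ly6c2 and Ly6a2 had no entry. The study sequenced RNA from 10 mouse libraries. In 6 of them, oligodendrocyte precursor cells (OPCs, the cells that give rise to myelinating oligodendrocytes) had been purified by immunopanning and cultured for 3 days with PDGFAA. Of these 6, 3 came from Olig2-Cre:Apc-fl/fl mice, in which Cre under the control of Olig2 deletes the Wnt pathway inhibitor Apc in Olig2-expressing cells and their progeny, and 3 came from Apc-fl/fl littermates without Cre, the wild type of the study. The other 4 libraries came from spinal cords of mice of the genotype Pdgfra-CreER:Apc-fl/fl, taken on day 18 of experimental autoimmune encephalomyelitis (EAE), an induced model of multiple sclerosis. Of these, 3 were of cells sorted as CD11b+Gr-1+NK1.1+ and named cytotoxic macrophages by the submitters, and 1 was of CD4+ cells labelled Th1. All 10 libraries carried floxed Apc alleles, and all 4 sorted libraries also carried the Cre of the precursor lineage, which is active only with tamoxifen; neither its dosing nor a sorted group with intact Apc is described in the sources used here. The age and sex of the mice are not given there either, and nothing states whether libraries of a group came from separate animals, so a p-value here reflects no more than how far these libraries spread, and that spread may be technical.

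Ly6 proteins are small cysteine-rich surface proteins, most of them held in the membrane by a glycosylphosphatidylinositol (GPI) anchor, and several mouse Ly6 genes are young duplicates that lie side by side. Gr-1 is not the product of a single gene: antibodies of that name bind Ly6G, a marker of neutrophils, and to a varying extent Ly6C, which is high on inflammatory monocytes and also found on some T cells and endothelial cells. Ly6C itself is encoded by the paralogs Ly6c1 and Ly6c2. Ly6a encodes Sca-1, a marker of blood stem cells that interferons raise in lymphocytes, Ly6e is a widely expressed interferon-inducible gene, and Ly6h is known from neurons, where its product modulates nicotinic acetylcholine receptors.

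The members lie on mouse chromosome 15 (GRCm38, GENCODE M21 gene models). In order along the chromosome they are Ly6e at chr15:74955051-74959905 on the plus strand, Ly6a at chr15:74994877-74998031 on the minus strand, Ly6c1 at chr15:75044018-75048830 on the minus strand, Ly6c2 at chr15:75108158-75111970 on the minus strand, Ly6a2 at chr15:75131377-75135128 on the minus strand, Ly6g at chr15:75155240-75159126 on the plus strand, and Ly6h at chr15:75551268-75567255 on the minus strand. From the start of Ly6e, the start of Ly6g lay 200.2 kb away and that of Ly6h 596.2 kb away. Ly6a2 is annotated as a transcribed pseudogene in GENCODE M21 and as a protein-coding gene in RefSeq, so whether a protein is made from it cannot be read from these tables.

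Because the results turn on which of the Ly6C paralogs was counted, the first 150 coding bases of both are shown 5′ to 3′, taken from the GENCODE M21 transcripts. Capitals mark the 6 bases at which they differ.
Ly6c1: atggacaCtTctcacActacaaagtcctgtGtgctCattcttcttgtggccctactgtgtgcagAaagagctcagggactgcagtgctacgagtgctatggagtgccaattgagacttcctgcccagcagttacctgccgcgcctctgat
Ly6c2: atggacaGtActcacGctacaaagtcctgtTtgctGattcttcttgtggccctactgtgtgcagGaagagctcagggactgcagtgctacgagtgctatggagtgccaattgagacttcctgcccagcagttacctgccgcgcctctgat

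All 6 marked differences fall before base 66 of the coding sequence, and the following 150 bases (66 to 215) are identical in both genes. Over the 393 coding bases the paralogs differed at 9 positions, an identity of 97.7%. The libraries were read as paired 150-base ends, and of 244 coding windows of that length 39 held no difference at all. Over the longest transcript, 5.61% of the 150-base windows of Ly6c1 (39 of 695) were also found in Ly6c2, and 5.79% of those of Ly6c2 (39 of 673) in Ly6c1. Windows of 75 bases were shared more often, at 23.2% for Ly6c1 and 21.9% for Ly6c2. No window of 150 bases of Ly6g, Ly6a, Ly6a2, Ly6e or Ly6h occurred in another gene's transcript. The coding sequence of Ly6g was 79.6% identical to Ly6c1, 78.1% to Ly6c2 and 83.1% to Ly6a, but only 53.2% to Ly6e and 53.8% to Ly6h. Of the 7 members, only the Ly6c1 and Ly6c2 pair thus shared exact windows of this length. Only exact matches were counted, so this does not show that reads of the other members were placed without ambiguity.

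The promoters of Ly6c2 and Ly6a2 are shown because these genes lie next to each other and were both abundant in the same libraries and without a read in the other sorted library. RefSeq (GRCm38.p6) gave a promoter for 4 of the 7 members, and the 250 bases before the first listed start are printed in the direction of transcription. Ly6c2 is chr15:75111972-75112221 and Ly6a2 is chr15:75135129-75135378, both on the minus strand, and capitals mark bases that differ or have no counterpart in the other.
Ly6c2: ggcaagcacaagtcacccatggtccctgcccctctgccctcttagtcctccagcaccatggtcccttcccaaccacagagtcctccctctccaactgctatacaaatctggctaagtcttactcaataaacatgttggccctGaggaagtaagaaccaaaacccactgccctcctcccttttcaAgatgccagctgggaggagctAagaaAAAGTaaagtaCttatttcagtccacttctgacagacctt
Ly6a2: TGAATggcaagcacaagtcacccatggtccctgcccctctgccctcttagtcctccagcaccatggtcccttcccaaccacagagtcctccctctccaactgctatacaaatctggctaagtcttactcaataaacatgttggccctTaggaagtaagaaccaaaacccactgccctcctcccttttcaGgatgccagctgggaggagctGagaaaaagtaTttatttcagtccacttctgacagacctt

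These promoters matched at 241 of 255 aligned positions, an identity of 94.5%. Between Ly6c1 and Ly6c2, whose coding sequences are nearly the same, the best local alignment of the promoters covered 227 columns at 72.2% identity. The promoter of Ly6g, the neutrophil member of the Gr-1 pair, is chr15:75155011-75155260 on the plus strand and aligned with that of Ly6c1 over 229 columns at 75.1% identity. Capitals in it mark matches, on either strand, to TTGCNNAA (a form of the C/EBP motif) and to GAGGAAG (an ETS motif bound by PU.1).
Ly6g: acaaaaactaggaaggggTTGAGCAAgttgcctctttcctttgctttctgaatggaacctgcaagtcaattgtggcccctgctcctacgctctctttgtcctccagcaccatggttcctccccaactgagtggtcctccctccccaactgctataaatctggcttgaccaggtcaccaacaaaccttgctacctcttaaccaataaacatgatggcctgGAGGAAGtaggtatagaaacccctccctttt

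The match to TTGCNNAA began 232 bases before the start of Ly6g, and the windows of Ly6c1, Ly6c2 and Ly6a2 held none. Each window was cut by distance from its own listed start, so the windows need not cover matching stretches. The Ly6g match lies near the far end of its window, and whether the other genes hold a counterpart further upstream was not tested. GAGGAAG occurred 31 bases before the listed start of Ly6g and 108 bases before that of Ly6c2, where it spans the capital G above. It was not in the windows of Ly6c1 and Ly6a2. The bases around the match are alike in the printed windows of Ly6g and Ly6c2, so the distances depend on which start is listed. The Ly6g window also runs past the start of its GENCODE gene model. Among 32851 RefSeq promoter windows of this length, 9.56% held TTGCNNAA and 10.6% held GAGGAAG, so matches of this kind are common. The motif TTCNNNGAA, bound by STAT factors, was found in none of the 4 windows and in 7.02% of all. Both strands were searched, no match overlapped another, and a match of letters is a description only.

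The macrophage-labelled libraries, named here by their column codes UK1A, UK2A and UK3A, held 23174908, 23564215 and 23474168 estimated reads, against 3051730 in the library labelled Th1. In the latter 6550 genes had a value, and 3726 of them rested on 1 to 3 reads. The sort antigens of the macrophage gate other than Gr-1 were at 12.3 ± 0.343 TPM (transcript counts corrected for length and scaled to a fixed sum; SD, n = 3) for Itgam, which encodes CD11b, and 0.0733 ± 0.0252 TPM for Klrb1c, which encodes NK1.1. Neutrophil markers made up 43.4% to 43.7% of all TPM in these libraries and monocyte and macrophage markers 3.40% to 3.46%. S100a8 alone, at 310396 ± 2006 TPM (SD, n = 3), supplied most of the neutrophil share. All 15 neutrophil markers and 13 of 14 monocyte and macrophage markers reached 1 TPM in each of them. In the library labelled Th1, Cd4 had no read and 11 of 12 T cell markers in the table had none, where 15514 of 22064 genes had no value. The exception was Lck at 66.3 TPM (422 reads), against 0.163 ± 0.0231 TPM (SD, n = 3) in the macrophage-labelled libraries. In both groups a transcript of a sort antigen, Klrb1c or Cd4, was nearly or wholly absent. The markers do not settle what either sort holds, and both groups are called by their labels.

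In cells sorted with a Gr-1 antibody, the most abundant Gr-1 transcript was Ly6c2 and not Ly6g. Ly6c2 stood at 6536.5, 6216.16 and 6375.07 TPM in libraries UK1A, UK2A and UK3A (6376 ± 160, SD, n = 3), the 16th highest level of all genes by their mean. Ly6g stood at 727.18, 749.21 and 753.64 TPM in the same order (743 ± 14.2, SD, n = 3), the 159th highest. No Ly6g value came near any Ly6c2 value. The ratio of Ly6c2 to Ly6g was 8.99, 8.30 and 8.46 in the 3 libraries, with a mean of 8.58 ± 0.362 (SD, n = 3), and without the correction for transcript length the ratio of reads was 7.56 ± 0.326. The library with the highest Ly6c2 level, UK1A, had the lowest Ly6g level. A bulk library cannot tell fewer cells of a type from less RNA per cell, so this balance of transcripts is not a ratio of monocytes to neutrophils.

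**Figure D1:**
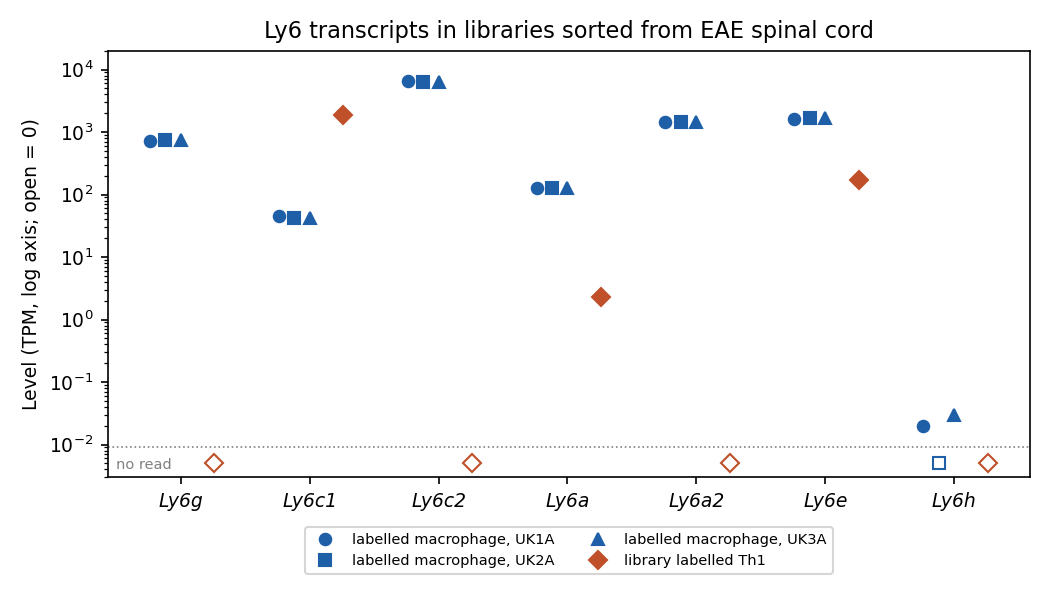
Each point is the level of 1 gene in 1 library in TPM on a log axis, with blue symbols for the 3 macrophage-labelled libraries, orange diamonds for the library labelled Th1 and open symbols for no read. Ly6c2, Ly6e, Ly6a2 and Ly6g lie above the level of Ly6a, 128 TPM, in each macrophage-labelled library, whereas in the library labelled Th1 only Ly6c1, at 1874 TPM, and Ly6e, at 174 TPM, lie above 100 TPM.

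Ly6c1 was the minor Ly6C transcript in these cells. Its levels were 45.79, 42.36 and 42.17 TPM (43.4 ± 2.04, SD, n = 3), so that Ly6c2 exceeded it 147 ± 4.21-fold (SD, n = 3). Of all reads given to either paralog, Ly6c1 took 0.681% in UK1A (95% Clopper-Pearson interval 0.644% to 0.719%), 0.662% in UK2A (0.625% to 0.701%) and 0.640% in UK3A (0.604% to 0.677%). These intervals cover counting error only, since reads from amplified libraries are not independent molecules. The share given to Ly6c1 was smaller than the 5.79% of Ly6c2 windows that are also found in Ly6c1. The deposited read values of both genes were not whole numbers in any macrophage-labelled library. Those of Ly6g, Ly6a and Ly6a2 were not whole there either, whereas 79.8% to 80.3% of all values in these libraries were. The Ly6c1 level in the macrophage-labelled libraries is therefore reported as uncertain, and how the reads of shared sequence were placed was not tested. Adding both paralogs moved the ratio to Ly6g only to 8.64 ± 0.366 (SD, n = 3).

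Ly6a2 and Ly6e were the next most abundant members in the macrophage-labelled libraries. Ly6e had 1638.71, 1659.33 and 1664.05 TPM in libraries UK1A, UK2A and UK3A (1654 ± 13.5, SD, n = 3), and its read values were whole numbers. Ly6a2 had 1472.52, 1442.33 and 1473.37 TPM (1463 ± 17.7, SD, n = 3), close to 1.97 ± 0.0512 times the level of Ly6g and 11.4 ± 0.144 times that of Ly6a (SD, n = 3 for both). The ranges of Ly6e and Ly6a2 over the 3 libraries did not overlap. Ly6a, which encodes Sca-1, was at 128.33, 128.47 and 128.36 TPM (128 ± 0.0737, SD, n = 3). Its coefficient of variation of 0.0574% was below the 1.49% that counting its reads alone would give, while that of Ly6c2, 2.51%, was above the 0.234% from counting.

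Ly6h, the neuronal member, was at or near 0, with 1, 0 and 1 reads. From highest to lowest the order of levels in TPM was Ly6c2, Ly6e, Ly6a2, Ly6g, Ly6a, Ly6c1 and Ly6h, and no neighbours in this order overlapped over the 3 libraries. The members together made up 1.04% ± 0.0158 (SD, n = 3) of all TPM. Ly6c2 contributed 61.3% ± 0.640 of that sum, Ly6e 15.9% ± 0.339, Ly6a2 14.1% ± 0.0843 and Ly6g 7.14% ± 0.223 (SD, n = 3 for each). The Gr-1 genes proper, Ly6g, Ly6c1 and Ly6c2, hence supplied most of the Ly6 transcripts, and of those most came from Ly6c2.

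The genes nearest in level to Ly6g and Ly6c2 were found by the Euclidean distance in log2(TPM + 1) over the 4 sorted libraries. For Ly6g these were Cstdc4 (distance 0.08, 750 ± 15.1 TPM in the macrophage-labelled libraries, SD, n = 3), the chemokine gene Cxcl2 (distance 0.21, 685 ± 3.37 TPM) and Cdk2ap2 (distance 0.21, 685 ± 3.04 TPM). For Ly6c2 they were Wfdc21 (distance 0.46, 5305 ± 275 TPM), Plac8 (distance 0.79, 4653 ± 18.7 TPM), a gene known from inflammatory monocytes and granulocytes, and Ifitm6 (distance 1.30, 3784 ± 65.3 TPM). All 6 genes had no read in the library labelled Th1, which the choice by distance nearly fixed, since Ly6g and Ly6c2 had none there. This is a likeness of level over 4 libraries only.

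The library labelled Th1 carried the opposite Ly6C paralog. It held 4294 reads of Ly6c1, or 1874 TPM (interval 1819 to 1931 for counting error) and 1407 CPM (reads scaled to a fixed total; interval 1365 to 1450), which made Ly6c1 the 128th highest gene there, and not a single read of Ly6c2. Of its 4294 Ly6C reads, 100% were thus Ly6c1 (lower 95% Clopper-Pearson limit 99.9%), against 0.661% ± 0.0206 (SD, n = 3) in the macrophage-labelled libraries. That limit covers counting error in 1 library, in which 15514 genes had no value. Reads from amplified libraries are not independent molecules, and loss of Ly6c2 molecules before amplification is not bounded by it. The Ly6c1 read value in this library was a whole number. Summed over both paralogs, Ly6C stood at 6419 ± 162 TPM in the macrophage-labelled libraries (SD, n = 3), 3.42 times its level in the library labelled Th1, and 5.60 times by CPM. The direction of that sum depended on the scaling: its log2 difference between the library labelled Th1 and the macrophage-labelled libraries was -0.99 with TMM, -2.48 with library totals and 0.53 with DESeq2 size factors. At each of these scalings the sum differed by a smaller factor than either paralog.

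**Figure D2:**
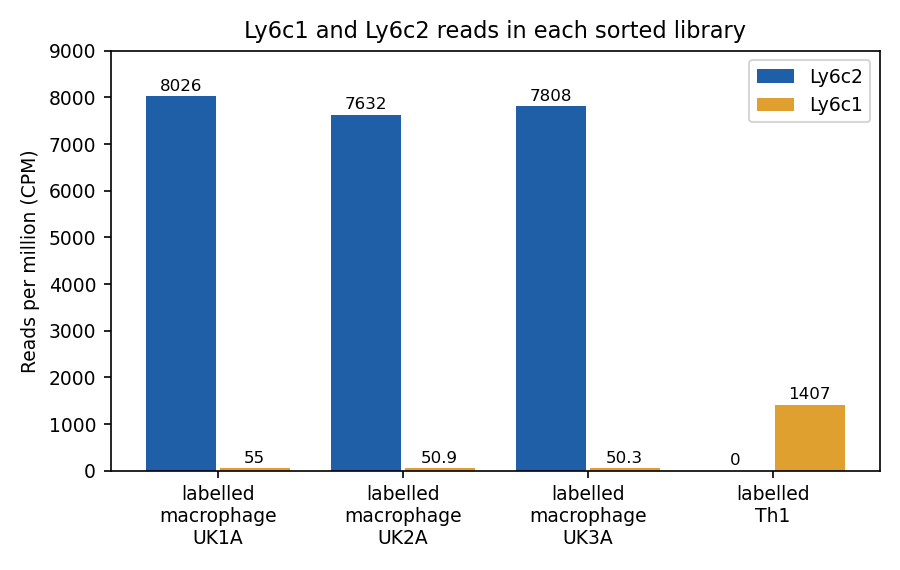
Bars give the CPM of Ly6c2 (blue) and Ly6c1 (yellow) in each of the 4 sorted libraries, with the value above each bar and the axis starting at 0. Ly6c2 makes up 7632 to 8026 CPM in the macrophage-labelled libraries and 0 in the library labelled Th1, where Ly6c1 is at 1407 CPM.

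The edgeR quasi-likelihood comparison of the library labelled Th1 with the macrophage-labelled libraries tested 11447 genes and called 68.2% of them at a Benjamini-Hochberg adjusted p under 0.05 and at least 4-fold, 13.7% as higher and 54.6% as lower in the library labelled Th1. Against that background 6 of the 7 members were tested, of which 1 was called higher and 5 lower, while Ly6h fell to the filter on low counts. With most genes called, the number of members called is not a result about them. The median gene was 5.61 lower on the log2 scale in the library labelled Th1. In that library 15514 of 22064 genes had no value, so many tested genes lay at or near the floor. The median moved to -4.42 without the low-count filter and to -1.71 with the DESeq2 Wald test. Percentiles and distances from the median below give a member's place among the tested genes and do not measure a change beyond a general shift.

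Ly6c1 was the member that rose. Its log2 difference between the library labelled Th1 and the macrophage-labelled libraries was 6.25 (SE 0.05), 76.2-fold, with an edgeR adjusted p of 9.19e-30, and it lay at the 96.3 percentile of all genes tested. The size depended on the scaling, at 218-fold with DESeq2 size factors and 27.0-fold with library totals. The macrophage level behind this fold is the uncertain one described above. Endothelial cells also express Ly6c1. Of 10 endothelial markers 9 had no read in this library, where 15514 of all 22064 genes had no value. All 10 markers together summed to 0.11 TPM, against 1.42 to 1.60 TPM in the macrophage-labelled libraries, low in both groups. The part of such cells in the Ly6c1 level was not tested.

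Ly6g, Ly6c2 and Ly6a2 fell from abundant to undetected. None had a read in the library labelled Th1, where the floor of 3 reads set for a count of 0 equals 0.983 CPM; the upper 95% two-sided Poisson limit is slightly higher, at 3.69 reads or 1.21 CPM. Bounds were taken at the floor of 3 reads in this library and at the smallest of 3 scalings, and cover counting error alone. Reads from amplified libraries are not independent molecules, and loss of molecules before amplification is not bounded. Within that limit Ly6g was at least 131-fold lower than in the macrophage-labelled libraries, Ly6a2 at least 259-fold lower and Ly6c2 at least 986-fold lower. Their edgeR adjusted p-values were 8.74e-22, 3.42e-24 and 3.34e-27. Neutrophil markers, a list that includes Ly6g, made up 43.4% to 43.7% of TPM in the macrophage-labelled libraries and 2.52% in the library labelled Th1. Monocyte and macrophage markers, a list that includes Ly6c2, were at 1.20% there, most of it Lyz2 at 11006 TPM. Their median log2 difference was -2.85, above that of all genes. Within this list Adgre1 (log2 3.95), Fcgr1 (3.36) and Cd14 (4.27) lay above 0 and the other genes below it. Most of the neutrophil share was S100a8, at 310396 ± 2006 TPM (SD, n = 3) against 13945 TPM in the library labelled Th1, where it was still the 6th highest gene. Gene by gene, 12 of the 15 neutrophil markers were called lower by edgeR and 0 higher, with Ltf (log2 1.80), Cxcr2, also above 0, and Camp (-0.46) not called, and the median of the list, -4.84, lay above the -5.61 of all genes. The part of those cells in the result was not tested. Ly6c2, Ly6a2 and Ly6g are consecutive members along the chromosome, and the plot of levels along the gene cluster shows the stretch they span.

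**Figure D3:**
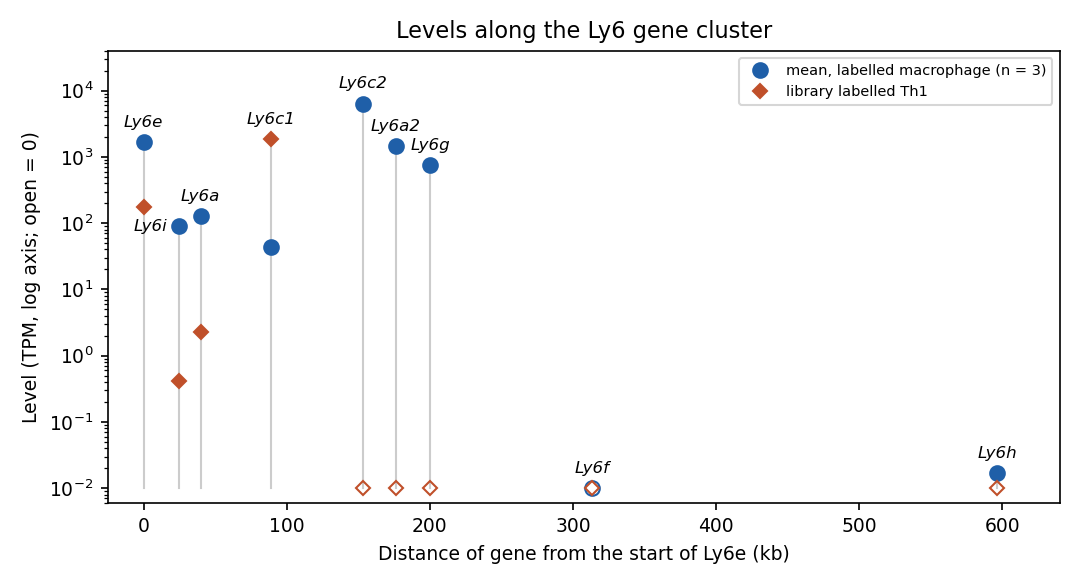
The level of each gene in TPM (log axis) is drawn at the distance of its start from that of Ly6e in kb, with blue circles for the macrophage-labelled mean (n = 3), orange diamonds for the library labelled Th1 and open symbols for no read. Ly6c2, Ly6a2 and Ly6g, between 153.1 and 200.2 kb, are high in the macrophage-labelled libraries and without a read in the library labelled Th1, and Ly6c1 at 89.0 kb has the reverse order.

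Ly6e was lower in the library labelled Th1, but less so than most genes. It had 767 reads there, or 173.58 TPM (counting interval 162 to 186 TPM), against 1638.71 to 1664.05 TPM in the macrophage-labelled libraries. The log2 difference was -2.56 (SE 0.04, edgeR adjusted p 5.42e-23), 5.91-fold lower, which is 3.05 above the median gene on the log2 scale and at the 67.3 percentile. With DESeq2 size factors the difference was 2.06-fold and the call was lost for missing the 4-fold minimum, and with library totals it was 16.7-fold.

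Ly6a had 6 reads in the library labelled Th1, or 2.28 TPM, against 128 ± 0.0737 TPM in the macrophage-labelled libraries. Its log2 difference of -5.11 (SE 0.24, edgeR adjusted p 1.51e-14), 34.6-fold lower, lay near the middle of all genes, at the 52.0 percentile. It was 0.50 above the median on the log2 scale with the TMM scaling, 0.73 above it with DESeq2 size factors and 0.35 below it with library totals. Without the low-count filter it was 1.13 below the median. With the DESeq2 Wald test it was 1.88 below, at the 24.9 percentile. The position of Ly6a relative to the median gene thus has no settled direction. Rank by TPM in the library labelled Th1 put Ly6c1 first among the members, then Ly6e and Ly6a, with counting intervals that did not overlap, and no read for the other 4.

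**Figure D4:**
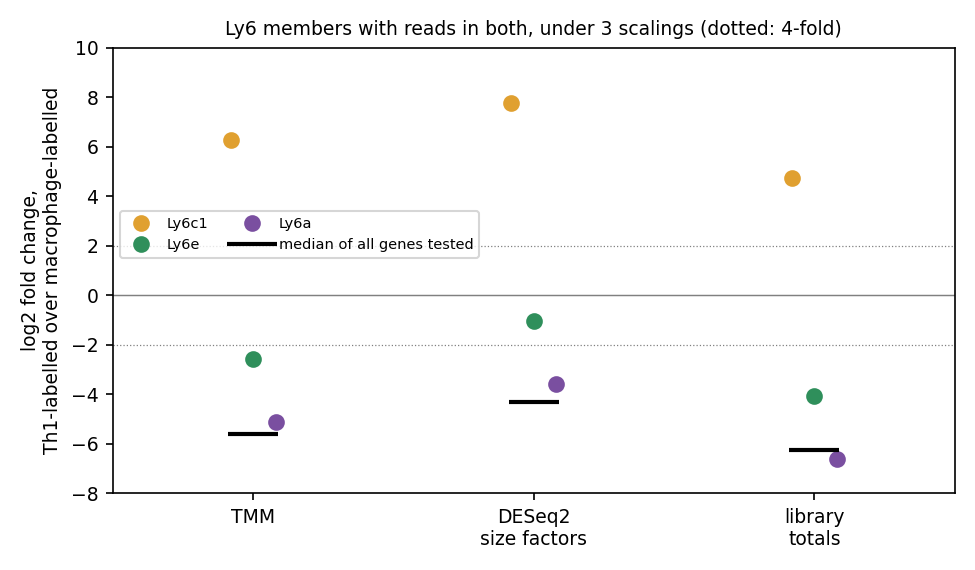
Points give the log2 fold change of the library labelled Th1 over the macrophage-labelled libraries for the 3 members with reads in both, under 3 scalings of the counts, with black bars for the median of all genes and dotted lines at 4-fold. Ly6c1 stays above 4 at each scaling, Ly6e passes -2 at 2 of the 3 scalings, and Ly6a lies within 1 of the median at each.

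Of 36 further genes of the Ly6 and uPAR family, 35 were in the sorted-cell tables, and 5 reached 1 TPM in each macrophage-labelled library. The highest were Ly6i, a neighbour of Ly6e and Ly6a, at 89.1 ± 1.40 TPM, the urokinase receptor gene Plaur at 60.1 ± 0.438 TPM and Cd177, which encodes a neutrophil surface protein, at 55.0 ± 1.25 TPM (SD, n = 3 for each). All 35 summed to between 214 and 218 TPM, less than Ly6g alone. In the edgeR comparison 11 of them were tested: Ly6i, Plaur and Cd177 were called lower in the library labelled Th1, and Ly6g5b and Lypd1 higher, beside 54.6% lower and 13.7% higher among all genes, with a median log2 difference of -5.90 beside -5.61. Ly6g5b, whose name resembles Ly6g, was at 11.71 TPM in the library labelled Th1 and 4.54 ± 0.310 TPM in the macrophage-labelled libraries (SD, n = 3).

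The enzymes that make GPI anchors were present in the macrophage-labelled libraries, with 17 of 27 genes at 1 TPM or more and Dpm3 (105 ± 4.32 TPM), Pigx (57.3 ± 1.54 TPM) and Dpm2 (56.6 ± 0.647 TPM) the highest (SD, n = 3 for each). In the library labelled Th1, 4 of the 27 reached 1 TPM. Of 26 tested by edgeR, Pigx, Dpm1 and Pgap3 were called higher there and 16 lower, shares near the 13.7% and 54.6% of all genes, with a median log2 difference of -5.97. Of 25 interferon-stimulated genes tested, Ifit3, Oas2 and Xaf1 were called higher and 20 lower, with a median of -6.91. Both medians lay below that of all genes, with 14 of 27 GPI anchor genes and 11 of 25 interferon-stimulated genes without a read in the library labelled Th1. For such genes the log2 difference depends on the floor. The interferon-inducible member Ly6e lay above the median of all genes, as did Ifit3, Oas2, Xaf1, Usp18 and further interferon-stimulated genes. The highest interferon-stimulated genes in the macrophage-labelled libraries were Zbp1 at 194 ± 1.66 TPM, Isg15 at 136 ± 1.91 TPM and Bst2 at 104 ± 1.91 TPM (SD, n = 3 for each), all below Ly6e.

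In the OPC cultures the member that stood out was Ly6h. The authors' deposited table gives 1 mean of normalized counts per gene over the compared libraries, and that of Ly6h was 19162, above 99.5% of the genes listed. Divided here by the exon length of GENCODE M21, the means of the authors' deposited table came to 4533 normalized counts per kilobase for Ly6h, 186 for Ly6e, 18.1 for Ly6a, 16.7 for Ly6c1 and 3.26 for Ly6g. Ly6h was thus the highest member where it had been near 0 in the sorted cells, and Ly6g, the lowest, stood at a mean of 3.07 in the authors' deposited table, close to the lowest mean listed there, 3.03. The order of Ly6a and Ly6c1 turned when the means of the authors' deposited table were divided by the longest transcript instead, at 22.9 and 33.1 normalized counts per kilobase. Neuronal genes were also abundant: all 8 neuron markers were in the authors' deposited table, with means from 8117 to 122255 beside 1046 to 13051 for the 7 OPC markers. Whether Ly6h came from neurons or from OPCs was not tested.

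No member was called between Apc-deleted and wild-type OPCs. The authors' deposited table calls 0.548% of 19333 genes at its adjusted p under 0.05 (106 genes, 0.393% higher and 0.155% lower, with 701 at an unadjusted p under 0.05), and 0 of the 5 members listed, none of them at an unadjusted p under 0.05 either. The log2 difference of Ly6h in the authors' deposited table was -0.12 (SE 0.13, p = 0.363), with a 95% interval of -0.36 to 0.13. For Ly6e it was -0.05 (SE 0.15, p = 0.746) in the authors' deposited table, with an interval of -0.34 to 0.24. As folds these intervals run from 0.777 to 1.10 for Ly6h and from 0.789 to 1.18 for Ly6e in the authors' deposited table. For the low members the authors' deposited table is less precise: Ly6a was at -0.46 (SE 0.45), Ly6c1 at -0.24 (SE 0.40) and Ly6g at -0.72 (SE 1.32). The adjusted p of each member in the authors' deposited table was 0.999993.

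All 5 point estimates were below 0, with a median of -0.24 beside 0.00 for all genes of the authors' deposited table, and no test supports a direction. Endothelial markers, which accompany Ly6c1 and Ly6a in brain tissue, also had 10 of 10 point estimates below 0 in the authors' deposited table, none called, with a median of -0.13. So did 8 of 8 neuron markers and 10 of 11 neutrophil markers, Ly6g among the latter, again with none called in the authors' deposited table. Monocyte and macrophage markers pointed the other way, with 10 of 10 estimates above 0 in the authors' deposited table and Lyz2 and Cd68 called. The part of such cells in the values of the members was not tested.

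**Figure D5:**
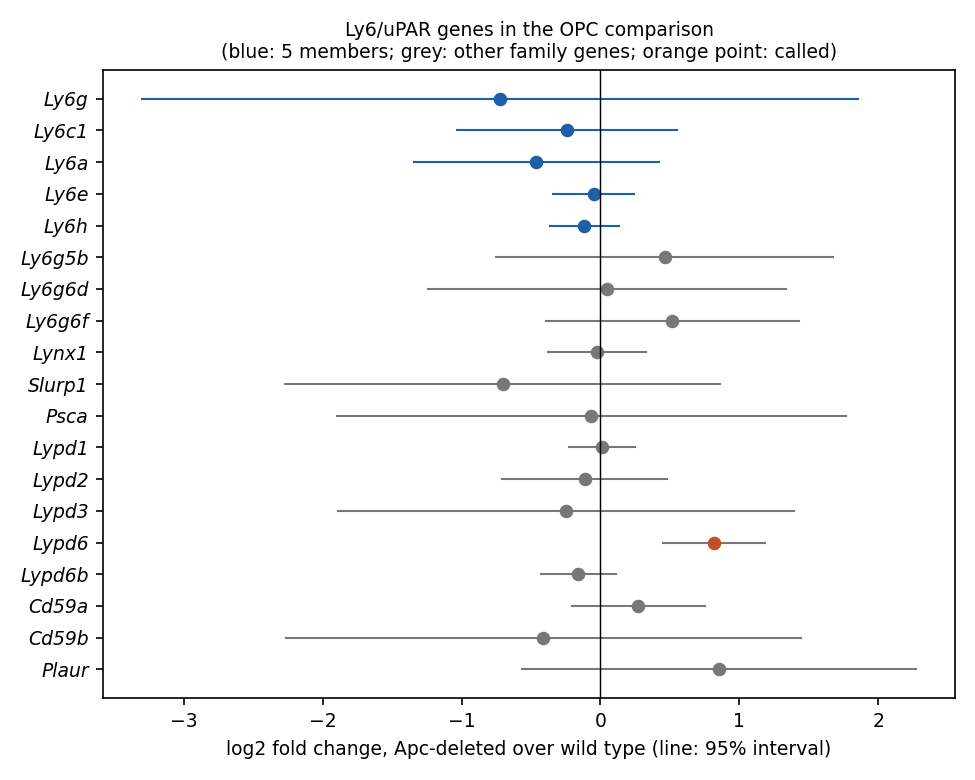
Points give the log2 fold change of Apc-deleted over wild-type OPCs from the authors' deposited table, with lines for the 95% interval, for the 5 members (blue) and 14 further genes of the Ly6 and uPAR family (grey). The interval of each member crosses 0, those of Ly6e and Ly6h are the narrowest of the 5, and the orange point marks Lypd6, the gene called.

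The 14 further family genes in the authors' deposited table had 7 estimates above 0 and 7 below, and 1 was called, beside 0.548% of all genes. That gene was Lypd6, which encodes a GPI-anchored protein known to modulate Wnt signalling and nicotinic receptors, at a log2 difference of 0.82 (SE 0.19, adjusted p = 0.00434) and a mean of 415 in the authors' deposited table. Its paralog Lypd6b was at -0.16 (SE 0.14, p = 0.258) and Plaur at 0.85 (SE 0.72, p = 0.239) in the authors' deposited table. The 27 GPI anchor genes in the authors' deposited table had 23 estimates above 0 and 4 below, none at an unadjusted p under 0.05, with a median log2 difference of 0.09. The smallest of these p-values in the authors' deposited table belonged to Pigh (p = 0.206), Pigc and Pgap2. None of 20 interferon-stimulated genes was called in the authors' deposited table, the smallest unadjusted p being that of Mx2 (0.0214), followed by Oasl2 and Gbp3.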

How the data were processed

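RNA was sequenced in paired 150-base reads. The submitters' processing notes name the build GRCm38, and no source used here names the aligner or counter. Per the file headers, each sorted-cell file holds TPM (reads corrected for transcript length) and estimated counts made by the authors. For the OPCs the authors deposited 1 comparison, with means of normalized counts (a signal over all compared libraries), log2 fold changes with standard errors, and p-values. The table names no numerator, so its sign was turned to Apc-deleted over wild type from the Wnt targets Notum, Sp5, Lef1 and Axin2. In all, 8 columns (FPKM and normalized reads of the sorted libraries) were not used. No label holds the macrophage column codes, so their columns went to the group without a replicate number. The members and gene lists were chosen with earlier results of these data known.

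Blanks were read as 0 and estimated counts were rounded. Differences between the library labelled Th1 and the 3 macrophage-labelled libraries were tested with edgeR 4.0.16 (quasi-likelihood, TMM, filterByExpr, Benjamini-Hochberg over all genes) and called where they reached 4-fold and an adjusted p under 0.05. The spread came from the macrophage-labelled libraries, and the lone library was assumed to vary like them. An SE beside an edgeR difference is the size of the log2 difference divided by the square root of its F statistic. It rests on the same assumption, unlike the SE deposited for the OPCs. Pairs of macrophage-labelled libraries differed by 1.29 to 2.53 times the counting variance over genes with at least 20 reads. A test on simulated counts (11447 genes, this comparison) recovered 50 of 50 raised and 49 of 50 lowered genes at 8-fold, and 48 and 40 of 50 at 4.5-fold, with 1 false call among 11247. The simulation drew the library labelled Th1 from the macrophage-labelled profile and spread, with most genes unchanged and only well-counted ones changed. In the deposited data the median gene lay at log2 -5.61 and fold sizes moved with the scaling. The simulated recovery and false call therefore do not carry over to the real comparison. OPC values were used as deposited. Intervals are 95%, Poisson for reads and Clopper-Pearson for shares, and the floor is 3 reads. Named genes are all members, some of the list genes that were called, and the 3 nearest in level to Ly6g and Ly6c2. For some lists the 3 highest in the macrophage-labelled libraries or the 3 with the smallest p in the OPC table are named. A list gene that is not named may still have been called. Other tools were Python 3.11.15 with biopython 1.88, matplotlib 3.10.9, scipy 1.17.1, pandas 2.3.3 and numpy 2.4.6, and R 4.3.3 with DESeq2 1.42.0.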

Additional observations from a re-analysis of the deposited data

How the results depend on the processing

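Under the alternatives run for the Th1-labelled comparison (other scalings, the DESeq2 Wald test, no low-count filter, no fold minimum, each macrophage-labelled library left out), Ly6c1 stayed higher and Ly6g, Ly6c2, Ly6a2 and Ly6a lower, with their calls. Ly6e lost its call with DESeq2 size factors (log2 -1.05) and the DESeq2 Wald test (log2 -1.05). Summing paralogs left 3 members called instead of 6: fewer features entered, and Ly6C as a sum was at -0.99, below 4-fold. With scalings added for the sums after seeing the data, Ly6C turned to 0.53 with DESeq2 size factors and passed 4-fold at -2.48 with library totals. Genes called numbered 4417 by the DESeq2 Wald test (1929 higher, 2488 lower), 5449 with DESeq2 size factors (2009 and 3440) and 9263 with library totals (1098 and 8165), against 7812 (1567 and 6245), and the median log2 difference moved to -1.71, -4.32 and -6.25. Leaving out each macrophage-labelled library gave 7778 to 7790 genes called and 6 members, a Ly6c2 to Ly6g ratio of 8.38 to 8.72 and a member sum of 1.03% to 1.05% of TPM. By reads in place of TPM that ratio was 7.56 and the sum 1.53%. For the OPCs 0 members were called with genes of a mean of at least 10 (107 of 15897 called) or with Benjamini-Yekutieli adjustment (61 called). No paired analysis was possible because the OPC table gives no value per library, the macrophage columns carry no replicate number of the labels and the library labelled Th1 stands alone. Depth limits the library labelled Th1 most, where 3 reads equal 0.983 CPM against 0.127 to 0.129 CPM in the macrophage-labelled libraries.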

Other observations

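In the library labelled Th1 and the macrophage-labelled libraries, the genes nearest in level to Ly6c1 over the 4 sorted libraries, by the distance in log2(TPM + 1), were Sra1 (0.41), Mrpl22 (0.43) and Smim26 (0.65), which were at 2090.03, 1531.39 and 2903.61 TPM in the library labelled Th1. For Ly6a2 they were Msrb1 (0.86), Pglyrp1 (0.90), which encodes a peptidoglycan recognition protein of neutrophil granules, and Mrpl33 (0.98). These genes were computed after the values were seen and are given as levels only.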
